A study of Mus musculus with 108 samples.

Results

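Meprins and the other peptidases of the brush border are the enzymes that cut peptides at the apical surface of the kidney proximal tubule and the small intestine. The set described here was chosen with earlier results of these data known. It was a list of 7 gene symbols, namely Mep1a, Mep1b, Anpep, Dpp4, Dpep1, Naaladl1 and Ggt1. For 6 of them the probe annotation listed a probe set with that single gene, and these are 6 of the 18193 genes so measured. Ggt1, which encodes gamma-glutamyltransferase, had no probe set listed for it alone and was not analysed here. The study used Affymetrix arrays on 6 whole organs (kidney, liver, lung, heart, brain, testis) of 6 inbred mouse strains, with 3 arrays for each strain and organ and so 18 arrays for each organ. The mice were males of 11 to 14 weeks, untreated as far as the labels say. C57BL/6J, whose genome is the mouse reference, and A/J, AKR/J, C3HeB/FeJ and DBA2/J came from the Jackson Laboratory, and 129S2 came from Charles River. No group carried an engineered allele per the labels, so every comparison is between strain backgrounds.

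Meprin alpha (Mep1a) and meprin beta (Mep1b) are subunits of zinc metalloproteases of the astacin family. Meprin beta spans the membrane and holds meprin alpha at the cell surface, while meprin alpha on its own is secreted. The other members are membrane-bound exopeptidases. Anpep encodes aminopeptidase N (CD13) and Dpp4 encodes dipeptidyl peptidase 4 (CD26), both of which remove residues from the amino end of peptides. Dpep1 encodes the membrane dipeptidase that splits cysteinylglycine and leukotriene D4, a step downstream of gamma-glutamyltransferase. Naaladl1 encodes a relative of glutamate carboxypeptidase II that was described in the ileum. Together these enzymes free amino acids and short peptides that the tubule then takes up.

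The promoter sequences of Mep1a and Dpep1 are shown because both genes were bright in kidney and separated the same AKR/J and C3HeB/FeJ strains from C57BL/6J in opposite directions, as given further on. Each run is the 250 bases before the annotated start of transcription, written along the gene's strand, from RefSeq (GRCm38.p6). The letters are those of the C57BL/6J reference, and the alleles of the other strains were not read here. Capitals mark an exact match to CAAAGT, a core of sites for the tubule and liver factor HNF4, on either strand (ACTTTG on the other strand).
Mep1a, chr17:43502774-43503023, minus strand: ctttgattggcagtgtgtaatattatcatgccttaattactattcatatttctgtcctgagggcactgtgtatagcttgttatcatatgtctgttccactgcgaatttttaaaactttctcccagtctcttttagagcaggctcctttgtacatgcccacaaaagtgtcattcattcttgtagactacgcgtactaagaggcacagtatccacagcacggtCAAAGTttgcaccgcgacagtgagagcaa
Dpep1, chr8:123185985-123186234, plus strand: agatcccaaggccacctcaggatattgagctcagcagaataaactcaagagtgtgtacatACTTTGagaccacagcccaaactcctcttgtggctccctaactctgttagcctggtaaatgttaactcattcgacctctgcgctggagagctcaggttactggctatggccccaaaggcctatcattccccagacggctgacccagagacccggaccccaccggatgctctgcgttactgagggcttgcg
The Mep1a match starts 29 bases before the start of transcription and the Dpep1 match 190 bases before it. The same 6 letters were found on either strand in 14.4% of 32851 windows of 300 bases in the promoter table, which run from 250 bases before to 50 after a start. The windows of Anpep and Dpp4 held no match to CAAAGT, the HNF1 half-site GTTAAT was in none of the 4 windows, and TATAAA was in that of Dpp4 (shares of all windows, 7.1% and 13.6%). The table had entries for 5 of the 7 listed genes.

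Values are log2 signals, so a difference of 1 is a doubling, and they are compared between strains within a tissue only, since the array medians differed between tissues (from 4.95 to 5.01 in liver up to 6.80 to 6.83 in lung, and 5.79 to 5.90 in kidney). Each array read the marker genes of its labelled tissue above those of the other tissues, in 18 of 18 arrays per tissue. Every kidney, liver, lung and testis array was nearest to an array of its own strain. In brain, 129S2 2 and AKR/J 2 were nearest to each other, and heart 129S2 3 resembled a C57BL/6J array most. Lung array C3HeB/FeJ 3 stood apart in skeletal muscle markers (10.69, the next highest lung array 6.98). In whole-organ RNA, fewer cells of a type and less RNA per cell cannot be told apart.

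In kidney, each of the 6 measured members differed between strains, and the 6 did not follow 1 common order. Mep1a was low in AKR/J and C3HeB/FeJ, Mep1b was low in DBA2/J, Naaladl1 was high in A/J, Dpp4 was low in 129S2, Dpep1 split the strains into 2 sets of 3, and Anpep varied least. By limma's moderated F test over the 6 strains, with Benjamini-Hochberg adjustment over all 18193 genes, 6 of 6 members passed an adjusted p of 0.05 in kidney, against 46.1% of all genes and 62.6% of genes whose kidney signal averaged 6 or more. The median range of strain means was 0.96 for the members and 0.28 for all genes. Highest and lowest strain differed by 1 log2 unit or more for 3 members (Mep1a, Naaladl1 and Mep1b), against 5.07% of all genes that also passed. The members, and the lists used further on, were chosen with earlier results of these data known. Values of all genes set beside them, here and below, are therefore a description and not a test of the set.

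**Figure D1:**
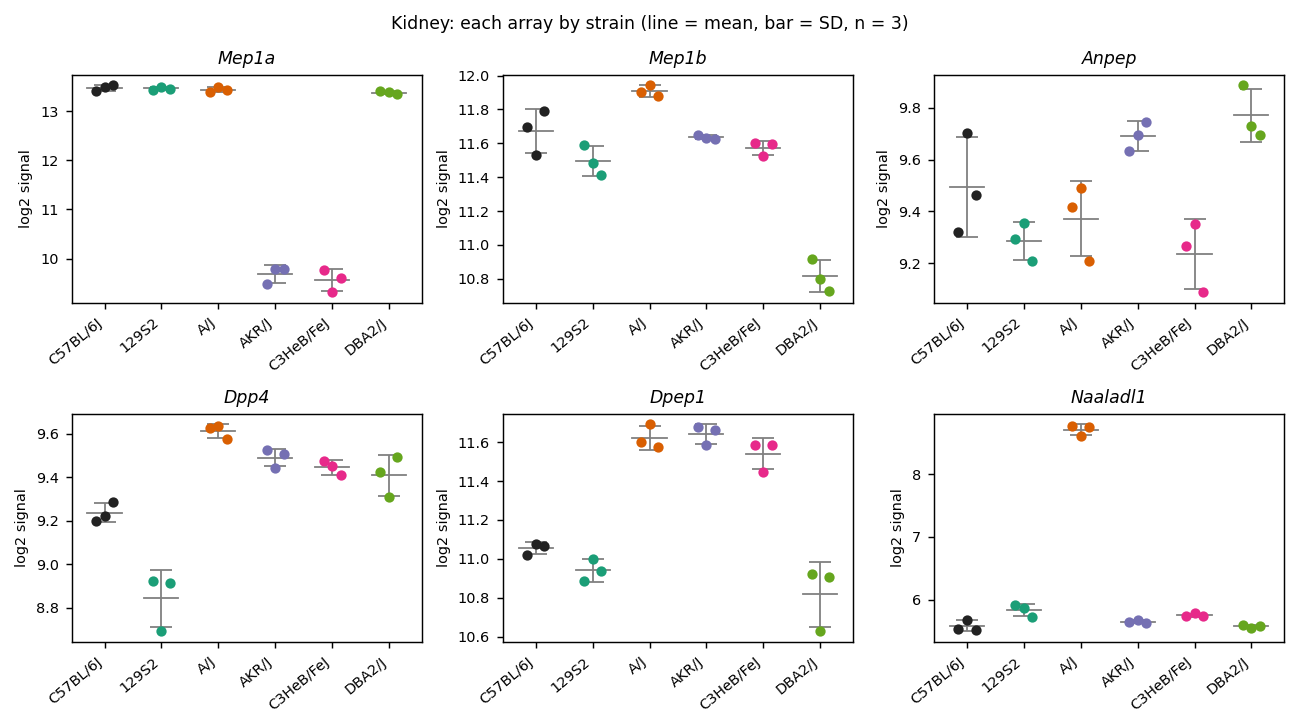
Log2 signal in kidney (y axis) of the 6 measured genes in each of 18 arrays (points) by strain (x axis); the long line is the strain mean and the bar its SD (n = 3), and each panel has its own y axis. Mep1a sits near 13.4 in 4 strains and below 9.80 in AKR/J and C3HeB/FeJ, and Naaladl1 is above 8.6 in A/J and below 5.93 in the other strains.

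Mep1a, on chromosome 17, was bright on the kidney arrays of 4 strains and much lower in the other 2. It read 13.41, 13.48 and 13.52 in C57BL/6J, 13.43, 13.45 and 13.49 in 129S2, 13.39, 13.43 and 13.49 in A/J, and 13.35, 13.38 and 13.40 in DBA2/J. In AKR/J it read 9.48, 9.79 and 9.80, and in C3HeB/FeJ 9.32, 9.60 and 9.78. These values were still well above the kidney array medians (5.79 to 5.90). The 12 arrays of the first 4 strains and the 6 of the other 2 did not overlap, and the gap between the nearest strain means, DBA2/J and AKR/J, was 3.69 ± 0.0956 (SE), 12.9-fold (adjusted p = 1.03e-14 in the limma test of pairs). C57BL/6J, the highest, and C3HeB/FeJ, the lowest, were 3.91 apart on the log2 scale, a 15-fold difference, with an adjusted p of 1.14e-16 for the F test over the strains. Of the 15 pairs of strains, the 8 between the 2 sets passed, where 18.5% of all gene and strain pairs passed in kidney. Within the upper set and within the lower set no pair passed, and AKR/J and C3HeB/FeJ differed by 0.12 ± 0.0956 (adjusted p = 0.425).

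On the 90 arrays of the other 5 tissues Mep1a read 4.42 to 6.07 (median 4.96), and in none of these tissues did it pass the test. Mep1a has a second probe set, which showed the same split with a wider gap. It read 13.38 ± 0.0969 in C57BL/6J, 13.38 ± 0.0236 in 129S2, 13.40 ± 0.0701 in A/J and 13.37 ± 0.0264 in DBA2/J, against 8.30 ± 0.158 in AKR/J and 8.25 ± 0.125 in C3HeB/FeJ (mean ± SD, n = 3). The order of the strains within the upper set was not the same in both probe sets, and the differences there were within the replicate spread. Of the proximal tubule markers, those of the S1 and S2 segments averaged 12.35 in AKR/J and 12.26 in C3HeB/FeJ against 12.15 in C57BL/6J. Those of the S3 segment averaged 11.97 in AKR/J and 11.68 in C3HeB/FeJ. In C57BL/6J, 129S2, A/J and DBA2/J they averaged 11.86, 11.63, 11.67 and 11.95. The part of these markers in the Mep1a difference was not tested. C3H mice have long been known for low kidney meprin activity. AKR and C3H mice share the k haplotype of the major histocompatibility complex, which lies on the same chromosome. Whether that haplotype has a part in the Mep1a difference was not tested.

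Mep1b, on chromosome 18, was not low in the strains with low Mep1a. It read 11.62, 11.63 and 11.65 in AKR/J and 11.53, 11.59 and 11.60 in C3HeB/FeJ, beside 11.53, 11.70 and 11.79 in C57BL/6J. These 3 strains did not differ from each other in the limma test of pairs. DBA2/J was the low strain, with 10.73, 10.80 and 10.91, and A/J the high one, with 11.88, 11.90 and 11.95. 129S2 lay next above DBA2/J, with 11.41, 11.49 and 11.59, and no array of another strain reached down to those of DBA2/J. DBA2/J was lower than 129S2 by 0.68 ± 0.0692 (SE; adjusted p = 1.18e-06), and A/J was higher than C57BL/6J by 0.23 ± 0.0692 (adjusted p = 0.0237). From A/J to DBA2/J the difference was 1.09, or 2.13-fold (adjusted p = 1.54e-08 for the F test), and 9 of 15 pairs passed. In DBA2/J the S1 and S2 markers averaged 12.08, the lowest of the strains (12.32 in A/J), and the S3 markers 11.95 (11.67 in A/J), and their part in the Mep1b difference was not tested. Outside kidney Mep1b read 3.01 to 4.11 on all 90 arrays.

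The 2 meprin subunits thus varied apart from each other, with a Pearson r of -0.163 over the 18 kidney arrays. This and the other correlations across arrays are descriptions, since the arrays share strains and normalization.

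Naaladl1, on chromosome 19, was high in A/J kidney alone among the 6 strains. It read 8.61, 8.75 and 8.77 in A/J. In the other 5 strains it read 5.53 to 5.92, close to the median of the kidney arrays, so A/J was the strain in which the gene stood out from the low values. 129S2 (5.73, 5.87 and 5.92) was next. A/J exceeded 129S2 by 2.87 ± 0.0634 (SE), 7.30-fold (adjusted p = 1.19e-15), and the lowest strain, DBA2/J, by 3.13, 8.76-fold (adjusted p = 1.85e-16 for the F test). 129S2 was in turn higher than C57BL/6J by 0.26 ± 0.0634 (adjusted p = 0.0078), a difference near the median level of the arrays. No member with 1 probe set, this one included, could be checked against a second probe set.

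Dpep1, on chromosome 8, fell into an upper and a lower trio of strains in kidney. The upper trio was AKR/J (11.59, 11.66 and 11.68), A/J (11.58, 11.60 and 11.69) and C3HeB/FeJ (11.45, 11.59 and 11.59). The lower trio was C57BL/6J (11.02, 11.07 and 11.08), 129S2 (10.88, 10.94 and 11.00) and DBA2/J (10.63, 10.91 and 10.92). No array of 1 trio reached the other. The nearest means across the gap, C3HeB/FeJ and C57BL/6J, were 0.49 ± 0.0731 apart (adjusted p = 0.000105), and AKR/J exceeded DBA2/J by 0.83, 1.77-fold (adjusted p = 3.04e-08 for the F test). All 9 pairs across the gap passed, and within the trios C57BL/6J against DBA2/J passed as well (0.24 ± 0.0731, adjusted p = 0.03). The second Dpep1 probe set kept the trios apart, from 10.66 ± 0.118 in C3HeB/FeJ to 10.33 ± 0.0777 in C57BL/6J at the gap. AKR/J and C3HeB/FeJ, the strains with the lower Mep1a signal, were thus in the upper trio for Dpep1 together with A/J, where Mep1a was high.

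Dpp4, on chromosome 2, was lowest in 129S2 kidney. It read 8.69, 8.91 and 8.92 in 129S2 and 9.20, 9.22 and 9.29 in C57BL/6J, a difference of 0.39 ± 0.0662 (SE; adjusted p = 0.000316). A/J was highest with 9.57, 9.62 and 9.63, followed by AKR/J (9.44, 9.50 and 9.52), C3HeB/FeJ (9.41, 9.45 and 9.48) and DBA2/J (9.31, 9.42 and 9.49). A/J exceeded 129S2 by 0.77, 1.70-fold (adjusted p = 5.39e-07 for the F test), and 9 of 15 pairs passed. AKR/J, C3HeB/FeJ and DBA2/J overlapped and did not pass against each other. Of the 4 Dpp4 probe sets, 2 placed 129S2 lowest, at 8.84 in the brightest and 5.99 in another, and 2 placed DBA2/J lowest, at 6.55 and 6.91.

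Anpep, on chromosome 7, had the smallest kidney difference of the 6 members, and its strains overlapped. DBA2/J read 9.69, 9.73 and 9.89 and AKR/J 9.63, 9.70 and 9.75, while C3HeB/FeJ read 9.09, 9.27 and 9.35. The arrays of DBA2/J and AKR/J lay above all those of C3HeB/FeJ, 129S2 and A/J, and the C57BL/6J arrays (9.32, 9.46 and 9.70) spanned the space between. DBA2/J exceeded C3HeB/FeJ by 0.54, 1.45-fold (adjusted p = 0.000596 for the F test), and 6 pairs passed, each of DBA2/J or AKR/J against C3HeB/FeJ, 129S2 or A/J. DBA2/J was the lowest strain for Mep1b and Dpep1 and the highest for Anpep.

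Relative to C57BL/6J in kidney, A/J was higher for 4 members and lower for none in the pair tests (8.92% of all genes were higher in A/J and 9.36% lower). 129S2 was higher for 1 and lower for 1 (9.65% and 12%), and AKR/J was higher for 2 and lower for 1 (9.18% and 7.82%). C3HeB/FeJ was likewise higher for 2 and lower for 1 (9.98% and 10.3%), while DBA2/J was higher for 0 and lower for 2 (10.4% and 10.7%). The 4 members higher in A/J were Mep1b, Dpp4, Dpep1 and Naaladl1. These comparisons share the C57BL/6J arrays. Over all members 50 of 90 pairs of strains passed in kidney, or 55.6%.

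Outside kidney fewer members passed than the 6 in kidney, in each tissue, and the share of all genes that passed was lower there too; the difference between tissues in these counts was not tested. In lung 3 of the 6 passed the F test (32.5% of all genes did), in heart 3 (21%), in liver 2 (31.6%), in testis 1 (40.5%) and in brain 0 (23.1%), where the lowest adjusted p was 0.494, for Anpep. Of the 90 member pairs, 19 passed in lung (11.4% of all gene and strain pairs), 14 in liver (11.7%), 10 in heart (6.59%), 9 in testis (15.8%) and 0 in brain (7.16%). Without adjustment, 0 of the 6 members and 1 of the 90 pairs had a limma p under 0.05 in brain. Each F test passed outside kidney was of Dpep1, Dpp4 or Anpep. So was each pair, except that Naaladl1 in liver was higher in 129S2 than in A/J by 0.31 ± 0.0799 (adjusted p = 0.0164), with means of 4.14 and 3.84, both under the liver array medians. Leaving out 1 array moved 2 of these pair counts by over 1.5 times, that of heart to 6 without C3HeB/FeJ 2 and that of testis to 14 without A/J 3.

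**Figure D2:**
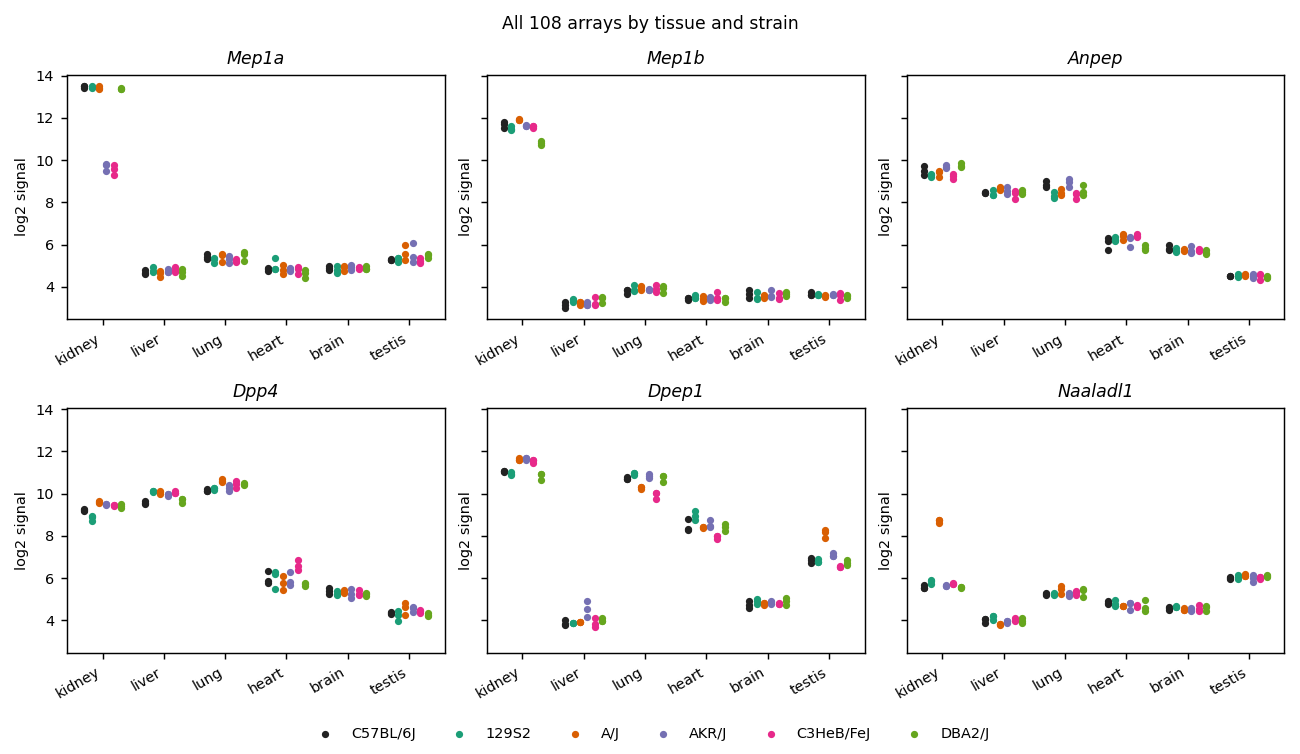
Log2 signal (y axis) of the 6 measured genes on all arrays (18 per tissue), by tissue (x axis) and strain (colour); levels can be compared between strains within a tissue. Mep1b reads above 10.7 in kidney and at most 4.11 elsewhere, and the A/J kidney arrays are the only ones with Naaladl1 above 6.18.

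In lung, Dpep1 and Dpp4 were both bright and Dpep1 had the widest strain difference. Dpep1 read 10.86, 10.99 and 11.00 in 129S2, 10.22, 10.30 and 10.32 in A/J and 9.76, 10.03 and 10.03 in C3HeB/FeJ, with the other 3 strains between 10.53 and 10.92. C3HeB/FeJ and A/J, members of the upper trio in kidney, were thus the low strains in lung. C3HeB/FeJ was below A/J by 0.34 ± 0.0895 (SE; adjusted p = 0.0224), and the range from 129S2 to C3HeB/FeJ was 1.01 (adjusted p = 2.07e-06 for the F test). Without lung array C3HeB/FeJ 3, whose muscle and adipose markers stood out, the range was 0.92 (adjusted p = 3.18e-06). Dpp4 was highest in A/J lung (10.57, 10.57 and 10.69) and lowest in C57BL/6J (10.11, 10.12 and 10.22), a range of 0.46 (adjusted p = 0.00308). This order depended on the probe set. A/J was also highest in 2 of the other 3 Dpp4 probe sets, whereas in the third A/J (8.22) lay below C57BL/6J (8.30), and C57BL/6J was lowest in none of them. With the mean of the 4 probe sets A/J exceeded C57BL/6J by 0.30, and the pattern over strains still passed. Anpep was highest in AKR/J (8.75, 8.98 and 9.11) and C57BL/6J (8.75, 8.85 and 8.99) and lowest in 129S2 (8.21, 8.29 and 8.48), a range of 0.62 (adjusted p = 0.00283). AKR/J was thus at or near the top for Anpep in both kidney and lung.

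In liver, Dpp4 had an order unlike that in kidney by its brightest probe set. There 129S2, the lowest strain in kidney, was the highest in liver with 10.09, 10.14 and 10.14. The low strains were C57BL/6J (9.52, 9.56 and 9.65) and DBA2/J (9.54, 9.72 and 9.76), whose arrays lay below those of every other strain. The range from 129S2 to C57BL/6J was 0.54 (adjusted p = 2.13e-05), and each of the 8 pairs between these 2 strains and the other 4 passed. The place of 129S2 was not shared by the other 3 probe sets, each of which had AKR/J highest. In 1 of them 129S2 was the lowest strain, with 7.16 ± 0.112 beside 7.26 ± 0.137 in C57BL/6J. On each 129S2 liver array the brightest probe set exceeded that one by 2.89 to 3.05, and on the other liver arrays by 2.13 to 2.82. With the mean of the 4 probe sets 129S2 exceeded C57BL/6J by 0.33 (adjusted p = 0.00167). Dpep1 was at 3.70 to 4.12 in 5 strains, under the liver array medians, and at 4.18, 4.53 and 4.90 in AKR/J (adjusted p = 0.00372). All 3 AKR/J values were below the array medians too, so this is a difference between low signals. Anpep was bright in liver (8.15 to 8.74) and did not pass (adjusted p = 0.256).

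In heart, Dpep1 repeated the lung order at its ends. It read 8.75, 8.92 and 9.19 in 129S2 and from 7.84 to 8.01 in C3HeB/FeJ, a range of 1.00 (adjusted p = 0.00115). C3HeB/FeJ lay below every other array, and the remaining 4 strains overlapped between 8.23 and 8.80. Dpp4 (6.60 ± 0.247 in C3HeB/FeJ and 5.70 ± 0.0517 in DBA2/J; adjusted p = 0.046) and Anpep (6.44 ± 0.0686 and 5.85 ± 0.123; adjusted p = 0.0297) were dim, passed narrowly, and lost the call when single arrays were left out. For Dpp4 the difference was 0.90, and 0.77 without C3HeB/FeJ 2 (adjusted p = 0.208). For Anpep it was 0.58, and 0.53 without DBA2/J 2 (adjusted p = 0.107). Most of each difference thus remained with 1 array fewer. Dpp4 was also lost under 3 other settings of the analysis. The heart adipose markers were highest on array C3HeB/FeJ 2 (6.90, the next 6.38), and their part in the difference was not tested.

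In testis Dpep1 was high in A/J by its brightest probe set, while its second probe set showed no such rise. By the brightest, A/J read 7.92, 8.17 and 8.28 and every other strain 6.52 to 7.17, a range of 1.57 down to C3HeB/FeJ (adjusted p = 1.39e-09). By the second, A/J read 6.69 ± 0.0595, within the span of the other strains from 6.18 ± 0.0779 in C3HeB/FeJ to 6.96 ± 0.0536 in AKR/J. The difference between both probe sets on an array was 1.20 to 1.65 in A/J and -0.06 to 0.43 in the other strains. In kidney no such excess appeared in A/J, where the difference was 0.62 on average and 0.66 in AKR/J. Which probe set follows the transcript in testis was not tested. C3HeB/FeJ was lowest by both probe sets. The epididymis markers averaged 5.18 in A/J testis and 5.18 in DBA2/J testis, and were highest on array A/J 2 (5.55, the next 5.39). Their part in the Dpep1 difference was not tested.

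**Figure D3:**
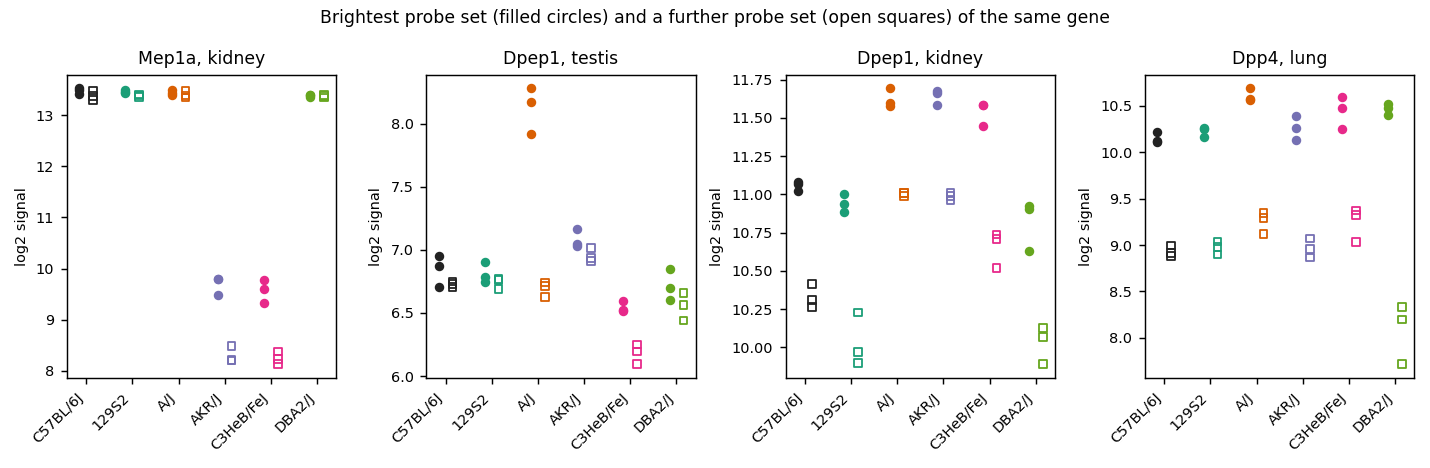
Log2 signal (y axis) of the brightest probe set (filled circles) and a further probe set (open squares) of the same gene on each array, by strain (x axis), for Mep1a in kidney, Dpep1 in testis and kidney, and Dpp4 in lung. Both Mep1a probe sets drop in AKR/J and C3HeB/FeJ, whereas Dpep1 in A/J testis and Dpp4 in DBA2/J lung depend on the probe set.

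A probe set dependence of the same kind was seen for Dpp4 in DBA2/J. The brightest Dpp4 probe set read 10.40, 10.48 and 10.52 in DBA2/J lung, among the higher strains. Another, of the type whose probes may also bind other sequences, read 8.08 ± 0.324 there and 8.93 to 9.25 in the means of the other strains. The difference between both was 2.19 to 2.76 in DBA2/J lung and 1.13 to 1.45 in all other lung arrays, and in kidney it was 2.42 to 2.65 in DBA2/J and 1.73 to 2.15 in the others. The DBA2/J values of Dpp4 given above are those of the brightest probe set.

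Whether the strain differences themselves depended on the tissue was tested in 1 fit over the arrays of all 6 tissues, with the animal as a random block. All 6 members passed this test of strain by tissue, as did 72.4% of all genes, so passing is common. More specific contrasts set the difference of a strain from C57BL/6J in kidney against the mean of the same difference in the 5 other tissues. Of 30 such member contrasts 9 passed, where 12.6% passed over all genes. Those of Mep1a were -3.84 ± 0.145 for AKR/J and -3.88 ± 0.145 for C3HeB/FeJ (SE; adjusted p = 3.34e-37 and 1.5e-37). The contrast of Naaladl1 in A/J was 3.14 ± 0.0946 (adjusted p = 1.31e-43) and that of Mep1b in DBA2/J was -0.91 ± 0.106 (adjusted p = 9.61e-11).

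The remaining 5 contrasts were of Dpep1, Dpp4 and Anpep. For Dpep1 the kidney difference exceeded that of the other tissues by 0.79 ± 0.12 in C3HeB/FeJ (adjusted p = 3.08e-07), where the gene was high in kidney and low in lung, heart and testis. It did so by 0.40 in A/J and 0.35 in AKR/J (adjusted p = 0.0157 and 0.0405). These Dpep1 values are of the brightest probe set, and that of A/J includes the testis rise that the second probe set did not show. For Dpp4 the 129S2 contrast was -0.47 ± 0.142 by the brightest probe set (adjusted p = 0.0144), the set in which 129S2 was lowest in kidney and highest in liver; the liver place depended on the probe set. For Anpep the DBA2/J contrast was 0.43 ± 0.12 (adjusted p = 0.00795), with DBA2/J highest in kidney. In lung the Anpep mean of DBA2/J (8.56) lay below that of C57BL/6J (8.86), from which the contrast is taken. In heart DBA2/J was lowest, with a call that was lost when single arrays were left out. In brain and testis Anpep did not pass the F test over the strains (adjusted p = 0.494 and 0.89).

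**Figure D4:**
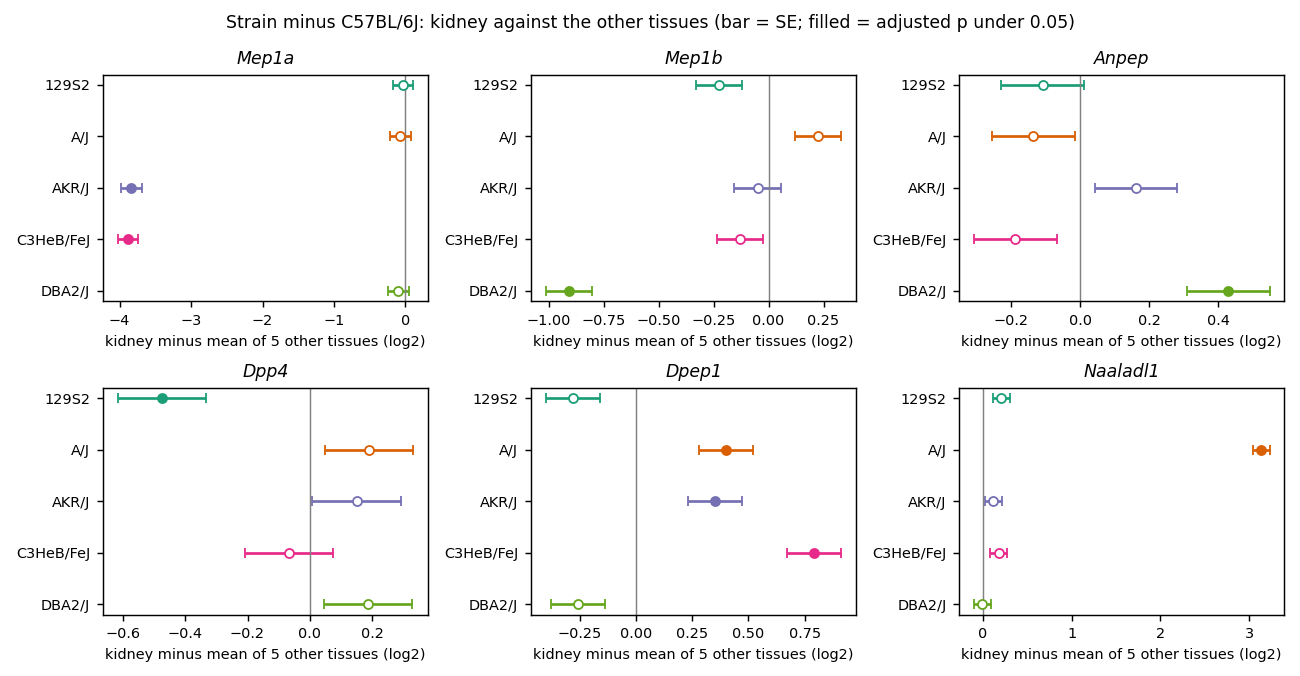
Difference of each strain from C57BL/6J in kidney minus the mean of that difference in the 5 other tissues (x axis, log2) for each gene and strain (y axis); bars are the SE and filled points passed an adjusted p of 0.05. AKR/J and C3HeB/FeJ stand near -3.84 and -3.88 for Mep1a and A/J at 3.14 for Naaladl1, and each panel has its own x axis.

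The other genes of the pathway in kidney were taken by lists of their roles. Of 15 measured further membrane peptidases 9 passed, beside 46.1% of all genes and 62.6% of genes whose kidney signal averaged 6 or more. Their median range was 0.39 against 0.28 for all genes. DBA2/J was the lowest strain for 5 of those 9, and how often it was lowest among all passing genes was not counted. Ggt6, a gene of the gamma-glutamyltransferase family, read 5.76 ± 0.221 in DBA2/J and 7.26 to 7.75 in the means of the other strains (adjusted p = 6.17e-11). Mme, which encodes neprilysin, had its minimum of 9.19 ± 0.141 in DBA2/J and its maximum of 10.49 ± 0.0906 in A/J (adjusted p = 9.28e-09). Enpep, which encodes aminopeptidase A, read 11.22 ± 0.198 in DBA2/J and 12.56 ± 0.067 in 129S2 (adjusted p = 1.08e-09). Against C57BL/6J, 4 of these 15 were lower in DBA2/J and 1 higher, where 10.7% of all genes were lower and 10.4% higher.

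The list drawn up for peptidases inside the tubule cell also held enzymes that are not intracellular peptidases, such as Pm20d1. Of its 12 genes 11 passed (46.1% of all genes and 62.6% of those averaging 6 or more in kidney did). The median range was 0.50. Cndp2, a cytosolic dipeptidase that also splits cysteinylglycine, read 12.17 ± 0.13 in 129S2 and 13.73 to 14.04 in the means of the other strains (adjusted p = 6.04e-12). Acy1, an aminoacylase, read 10.63 ± 0.101 in C57BL/6J and 11.77 to 12.14 elsewhere (adjusted p = 1.38e-11). Pm20d1 had a range of 1.73, from 9.38 in C57BL/6J to 11.11 in 129S2 (adjusted p = 4.61e-11). DBA2/J was higher than C57BL/6J for 8 of these 12 and lower for 1, beside the same shares of all genes, 10.4% and 10.7%.

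The shares beside the next lists are again 46.1% of all genes and 62.6% of those averaging 6 or more in kidney. Peptide and amino acid transporters passed in 12 of 15, with a median range of 0.62. The widest were Slc6a20a, an imino acid transporter, with 7.55 ± 0.13 in C57BL/6J and 9.23 ± 0.092 in 129S2 (adjusted p = 9.72e-09), Slc36a2 (range 1.16) and Slc7a8 (range 1.14). Glutathione genes, which supply the substrate of gamma-glutamyltransferase, passed in 8 of 12 with a median range of 0.32. Ggct, which handles gamma-glutamyl amino acids inside the cell, ran from 9.21 in A/J to 10.76 in DBA2/J (adjusted p = 3.12e-07), followed by Gclc (range 0.89) and Gsr (range 0.58). Astacin relatives and meprin regulators passed in 3 of 8, with a median range of 0.27. These were Bmp1, Furin and Adam10, with ranges of 0.41, 0.25 and 0.22, and the sheddase Adam10 and the convertase Furin were highest in DBA2/J.

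The list of structural and other apical proteins of the brush border passed in 10 of 17, with a median range of 0.29. Of all genes 46.1% passed, and of those averaging 6 or more in kidney 62.6%. This list also held the transcription factor genes Hnf4a and Cdx2, which are not apical proteins and did not pass the F test (adjusted p = 0.26 and 0.676). Cdhr2, a protocadherin that links microvilli, read 9.52 ± 0.0982 in AKR/J and 7.76 ± 0.0843 in A/J (adjusted p = 2.36e-10), and Treh and Espn had ranges of 0.81 and 0.53. In AKR/J 5 of these 17 were higher than in C57BL/6J and 0 lower, where 9.18% of all genes were higher and 7.82% lower. The share of passing genes in these 6 lists ran from below to above that of all genes.

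Genes that followed the members over the 18 kidney arrays were sought among 11106 genes whose kidney signal averaged 6 or more. Nearest to Mep1a was H2-D1, a class I histocompatibility gene on chromosome 17 too (r = 0.979), which read 8.95 in AKR/J and 8.78 in C3HeB/FeJ against 11.56 to 11.99 in the means of the other strains. Mbd4 on chromosome 6 and Tmtc3 on chromosome 10 followed (r = 0.957 and 0.947). The correlation with H2-D1 came from the gap between both sets of strains, and its Spearman rho was 0.575. For Mep1b the nearest were Spp2, Fli1 and Tmem45b (r = 0.965, 0.953 and 0.947), each lowest in DBA2/J. For Naaladl1 they were Art3, Lyplal1 and Commd2 (r = 0.972, 0.947 and 0.939), where A/J was high. Art3 read 7.28 in A/J and 5.88 to 6.08 in the means of the other strains. For Dpep1 the nearest were Adssl1, Fn1 and Apaf1 (r = 0.947, 0.936 and 0.933), for Dpp4 Letmd1, Ttc8 and Epm2aip1 (0.949, 0.946 and 0.941), and for Anpep Yipf1, Arsa and Chd3 (0.888, 0.874 and 0.862). Among the members the highest r was 0.682, between Mep1b and Dpep1, and the lowest -0.645, between Mep1a and Dpep1.

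Genes next to the members on their chromosomes were looked at for like strain patterns. Of the 3 measured genes on each side of the 6 members, 36 in all, 16 passed the F test in kidney, where 46.1% of all genes passed. Several neighbours averaged under the kidney array medians and could show little of a pattern, such as Adgrf1 (3.50) and Ankrd66 (3.73) beside Mep1a. Beside Dpp4, Tbr1 (3.16), Slc4a10 (3.54), Gcg (3.32) and Fap (4.13) did so too. None of the 6 around Mep1a was low in both AKR/J and C3HeB/FeJ as Mep1a was. Of these, 3 passed, namely Adgrf5 (range 0.59), Slc25a27 (0.28) and Pla2g7, a phospholipase gene, with 6.59 in DBA2/J at the low end and 7.78 in C57BL/6J at the top (adjusted p = 4.63e-09). Beside Naaladl1, Sac3d1 and Arl2 were highest in A/J and passed, with ranges of 0.43 and 0.36, far under that of Naaladl1. Beside Mep1b 5 of 6 passed, with Klhl14 and 4930426D05Rik lowest in DBA2/J (ranges 0.54 and 0.52). Beside Dpp4, Ifih1, an RNA sensor gene, was low in DBA2/J (6.59) and A/J (6.69) and at 7.87 to 7.94 in the other strains (adjusted p = 3.22e-10), a pattern unlike that of Dpp4. Except for Pla2g7 and Ifih1, which had ranges of at least 1, these neighbours were named after their values were seen.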

How the data were processed

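Per the labels, total RNA of whole organs was hybridised to 108 one-colour Affymetrix arrays. The deposited values are log2 signals of 45101 probe sets, made by the authors with RMA (version not given in the sources used here), per the submitters' processing notes. Scanner files were not used here, so no background call was available. Probe sets for 1 gene (34945) were kept. Controls (64) and those with several genes (932) or none (9160) were left out. The brightest probe set by mean over 108 arrays stood for a gene. The members and lists were chosen with earlier results of these data known.

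Strain and animal number came from the titles. For 4 arrays the source name gives another number, and the labelling text speaks of pools without saying of what. Each tissue was fitted in limma 3.58.1 (R 4.3.3) with 1 mean per strain, a moderated F test and all 15 pairs, with Benjamini-Hochberg adjustment (over genes, or genes and pairs) at 0.05. The fit over all tissues used the animal as a random block (22 animals by title). The scripts were tested on simulated data. The number of arrays limits the precision. Genes beyond the members were named by rule: per list the 3 widest passing ranges in kidney, per member the 3 highest r, and neighbours that passed with a range of at least 1. Alternatives covered the prior, filters at mean log2 of 6 and 8, the probe set rule, normalization, left-out arrays and blocks.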

Additional observations from a re-analysis of the deposited data

Results flagged for a closer look

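For the 6 measured members the differences between strains themselves differed between the 6 tissues, by limma's F test of 25 contrasts over the arrays of all 6 tissues. The adjusted p was 6.8e-42 for Mep1a, 5.71e-41 for Naaladl1, 9.8e-23 for Dpep1, 1.57e-09 for Mep1b, 1.09e-07 for Anpep and 2.5e-07 for Dpp4, and 72.4% of all genes passed the same test. With the kidney arrays left out the test was passed by 3 members, and the adjusted p became 0.204 for Mep1a, 0.583 for Mep1b and 0.239 for Naaladl1. Groups of 3 arrays were not tested for single outlying samples.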

How the results depend on the processing

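In kidney all 173 member values recomputed under the alternatives kept their direction and call, as did all 160 in liver, 162 in lung and 162 in brain. In heart 20 of 159 lost the call, all of Dpp4 or Anpep, and in testis 1 of 158 gained it (Dpp4 without A/J testis 3, adjusted p = 0.0127). No member value reversed under these alternatives, but they did not take each further probe set alone. A change of prior leaves the strain means as they are and so could not reverse a direction. Taken alone, a further Dpp4 probe set had 129S2 (7.16) below C57BL/6J (7.26) in liver. In lung it had A/J (8.22) below C57BL/6J (8.30). The remaining Dpp4 probe sets kept both directions. Kidney ranges over the alternatives were 3.78 to 4.52 for Mep1a, 3.07 to 3.18 for Naaladl1, 1.05 to 1.14 for Mep1b, 0.73 to 0.89 for Dpep1, 0.69 to 0.81 for Dpp4 and 0.46 to 0.59 for Anpep, whose highest adjusted p was 0.00325. With genes of mean log2 of at least 6, liver kept 1 member and 8 pairs, since Dpep1 falls under the filter, and at 8 it kept 1 member and 9 pairs and heart 1 member. The heart adjusted p of Dpp4 was 0.0579 with an intensity trend and robust prior, 0.076 with the mean of its probe sets and 0.0602 after quantile normalization. Without kidney 3 members passed the strain by tissue test. Leaving out 1 array in turn, members passing numbered 6 to 6 in kidney, 1 to 3 in heart and 1 to 2 in testis, and pairs 48 to 51, 6 to 15 and 7 to 14. The heart member count was 1 without C3HeB/FeJ 1 or 3, DBA2/J 2 or 3, or A/J 3, the heart pairs 6 without C3HeB/FeJ 2, and the testis counts 2 and 14 without A/J 3. The member contrasts of kidney against other tissues that passed numbered 6 to 9. The title numbers were not taken to pair the arrays: in no tissue did each pair of same-numbered arrays of different strains have r over 0.1. Single pairs ran from -0.642 to 0.645, both in heart, and the median over pairs ranged from -0.0153 in brain to 0.123 in testis (-0.0126 there for arrays of other numbers). With the title number as a replicate block 6 members and 8497 genes passed in kidney, against 8389, with no member call changed in any tissue. Leaving out brain arrays 129S2 2 and AKR/J 2, chosen after seeing the data, left 0 members passing in brain. Spearman rho in place of r moved 9 of the 18 likeness values, down to 0.397 for Commd2 with Naaladl1. Signals near the array medians (Naaladl1 outside A/J, Dpep1 in liver) limit what small differences there can show, and the files used here gave no detection call.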
